A study of Mus musculus with 47 samples.

Results

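The transcripts of 10 DNA glycosylases other than Tdg were followed through mouse embryonic stem cells (ESCs) and embryoid bodies: Ung, Smug1, Mbd4, Ogg1, Mutyh, Nthl1, Neil1, Neil2, Neil3 and Mpg. They were taken by gene symbol, 10 of the 26954 symbols in the 5 deposited expression tables, and every symbol was found in every table. RNA came from E14Tg2A, a mouse ESC line, kept without serum in N2B27 with LIF and the inhibitors PD0325901 (of MEK) and CHIR99021 (of GSK3). The siTdg groups were transfected with siRNA to Tdg and the siC groups with control siRNA, so the controls were transfected too. The 20 libraries form 10 groups of 2: siC and siTdg ESCs at 48 h, siC and siTdg ESCs at 96 h, siC and siTdg day 11 embryoid bodies (EBs) grown from transfected ESCs, and siC and siTdg ESCs separated into G1 and into G2M. For sorted cells the labels give no hours after transfection. Levels are in RPKM, reads per kilobase of gene. By the recovered reads, each library was scaled by a factor of its own (a size factor) and not by its total of reads.

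Base excision repair starts with a glycosylase, which finds a damaged or misplaced base and cuts it from its sugar. The bare site is then opened by an AP endonuclease, filled by a polymerase and sealed by a ligase. Each glycosylase has its own range of bases: uracil and thymine mispaired with guanine, oxidised purines, oxidised pyrimidines, or alkylated bases. TDG, the target of the siRNA, removes thymine from G:T mispairs and some oxidised forms of 5-methylcytosine. Some of the other glycosylases share parts of its substrate range.

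Reads per library, recovered from the deposited values, ran from 20818174 to 41433232, and the glycosylases had between 38 reads (Neil2) and 4551 reads (Ung) in a library. At 48 h Tdg stood at 46.0 and 43.4 RPKM with siC and at 7.34 and 13.2 RPKM with siTdg. At 96 h it was at 35.8 and 46.0 RPKM against 28.2 and 40.3 RPKM, and in EBs at 35.1 and 38.5 RPKM against 37.3 and 43.7 RPKM. The libraries labelled siTdg thus overlapped their controls in Tdg at 96 h and in EBs. In sorted cells Tdg was between 7.53 and 12.3 RPKM in siTdg and between 54.8 and 63.1 RPKM in siC. The 10 pluripotency markers summed to between 2062 and 2907 RPKM in unsorted ESCs and to between 12.8 and 27.0 RPKM in EBs. No label states whether replicate libraries were separate cultures, and the p-values below rest on the spread between such libraries, which may be only technical.

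In ESCs the glycosylases spanned a wide range, with Ung far above the rest. Ung encodes the main uracil DNA glycosylase and was at 54.82 and 52.96 RPKM in siC at 48 h. Nthl1, which removes oxidised pyrimidines, was at 18.3 and 20.1 RPKM. Ogg1, the 8-oxoguanine glycosylase, was at 10.8 and 16.1 RPKM. These 3 genes did not overlap one another in that group. Below them followed, by mean level, Mutyh, Mbd4, Mpg, Smug1, Neil1, Neil2 and Neil3. Of the 9 pairs of neighbours in this order, 2 overlapped between libraries. The lowest gene, Neil3, was at 1.84 and 2.57 RPKM.

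The order Ung, Nthl1, Ogg1, Mutyh led in all 4 unsorted ESC groups. In the sorted groups Ung also came first and Neil2 last. In siC EBs the order was Mpg, Nthl1, Ung, Ogg1, Smug1, Neil3, Mutyh, Neil1, Mbd4 and Neil2, and 7 of the 9 neighbouring pairs overlapped. Gene lengths used by the authors differed between the ESC and EB tables and the sorted tables for Neil1 (1170 against 1997 bases) and Ogg1 (1543 against 1626 bases). Levels of these 2 genes in sorted cells are therefore not on the scale of the unsorted cells.

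**Figure D1:**
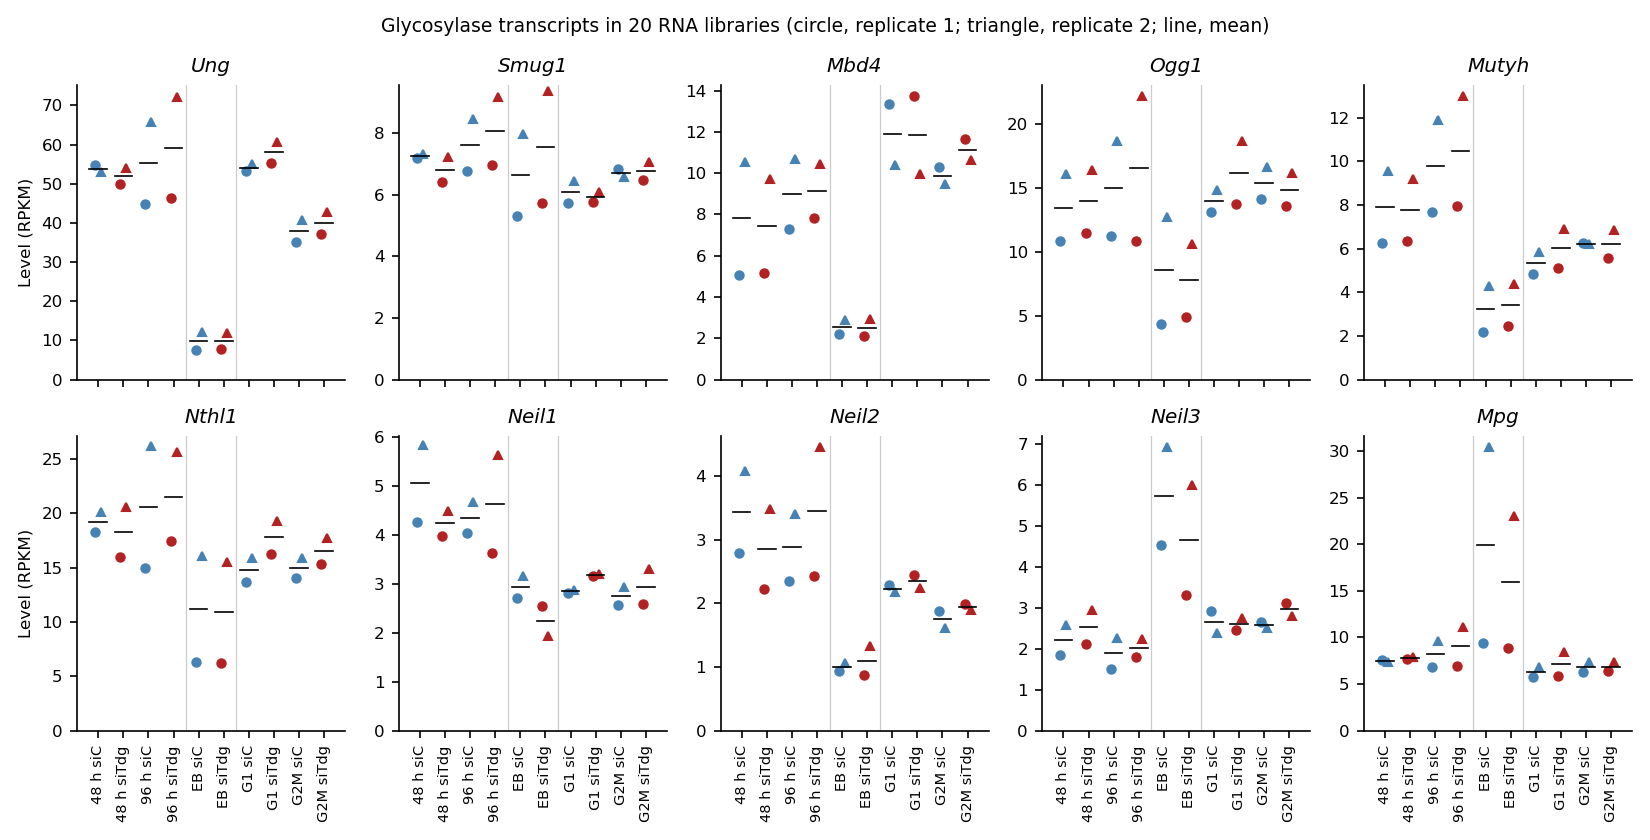
Levels of the 10 glycosylases in RPKM (linear axis from 0) in each library of the 10 groups, siC in blue and siTdg in red, with the mean of each group as a line. Ung is low in the 4 EB libraries (7.43 to 12.2 RPKM) and stands lower in G2M than in G1, while Neil3 and Mpg have their highest group means in EBs.

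The largest differences lay between EBs and ESCs. EB siC was compared with the mean of siC at 48 h and at 96 h by limma on log2(RPKM + 0.5). This scale understates changes of low genes, and a call was a Benjamini-Hochberg adjusted p under 0.05. The fit held 1 spread per gene for ESC and EB libraries alike. Yet siC replicates differed by a chi-square per degree of freedom of 807.95 in EBs, 57.72 at 48 h and 146.54 at 96 h. SEs and adjusted p-values may therefore be too small for genes that varied more in EBs. Ung, Mbd4, Mutyh and Neil2 were called lower and Neil3 higher, so 5 of 10 glycosylases were called. This share is near the background, since 48.7% of the 13337 genes tested were called in this comparison. In the lower direction 4 of 10 glycosylases were called against 27.3% of genes, and in the higher direction 1 of 10 against 21.4%. The median over the 10 was a log2 change of -0.87, and over all genes it was -0.11. EBs and ESCs come from separate tables with separate scaling, so differentiation and library set cannot be told apart. In these bulk samples, fewer cells of a type and less RNA per cell cannot be told apart either.

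Among the enzymes that act on uracil and mispaired thymine, Ung fell most. Ung was at 7.43 and 12.2 RPKM in EB siC, against 54.82 and 52.96 RPKM at 48 h and 44.8 and 65.6 RPKM at 96 h in ESC siC. The EB and ESC libraries did not overlap. The log2 change was -2.44 (SE 0.30, limma adjusted p = 0.000255), with -2.66 in replicate 1 and -2.23 in replicate 2.

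Mbd4, a methyl-CpG binding protein that removes thymine and uracil mispaired with guanine in CpG sites, also fell. It was at 2.22 and 2.90 RPKM in EB siC, against 5.08 and 10.6 RPKM at 48 h and 7.28 and 10.7 RPKM at 96 h. Its log2 change was -1.49 (SE 0.36, limma adjusted p = 0.00869), and no EB library reached an ESC library. Without EB siC replicate 1 the log2 change was -1.33 and the SE rose from 0.36 to 0.485, and the call was lost. The lone EB siC library is then assumed to vary like the other groups. Smug1, another uracil glycosylase that also takes 5-hydroxymethyluracil, was at 5.32 and 7.96 RPKM in EB siC and at 7.19 and 7.32 RPKM at 48 h and 6.77 and 8.43 RPKM at 96 h in ESC siC, which overlapped. Its log2 change of -0.17 (SE 0.26) did not pass (limma adjusted p = 0.619).

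The pair that guards against 8-oxoguanine differed in call. Mutyh, which removes adenine opposite 8-oxoguanine, fell: 2.19 and 4.29 RPKM in EB siC stood below 6.26 and 9.57 RPKM at 48 h and 7.69 and 11.9 RPKM at 96 h. Its log2 change was -1.35 (SE 0.37, limma adjusted p = 0.0163). Without EB siC replicate 1 it was -0.93 with an SE of 0.451, and this call was lost too. Ogg1 was at 4.35 and 12.8 RPKM in EB siC, against 10.8 and 16.1 RPKM at 48 h and 11.2 and 18.7 RPKM at 96 h. The second EB library lay inside the ESC range, and the log2 change of -0.84 (SE 0.50) did not pass (limma adjusted p = 0.202). Whether the changes of Mutyh and Ogg1 differ was not tested.

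Among the enzymes for oxidised pyrimidines and ring-opened purines, Neil2 fell and Neil3 rose. Neil2 was at 0.942 and 1.06 RPKM in EB siC, below 2.80 and 4.08 RPKM at 48 h and 2.35 and 3.41 RPKM at 96 h. The log2 change was -1.26 (SE 0.30, limma adjusted p = 0.00829). Neil3, a glycosylase known for single-stranded DNA and for interstrand crosslinks at replication forks, was at 4.53 and 6.94 RPKM in EB siC. In ESC siC it was at 1.84 and 2.57 RPKM at 48 h and at 1.52 and 2.27 RPKM at 96 h, so every EB library stood above every ESC library. Its log2 change was 1.28 (SE 0.31, limma adjusted p = 0.00792). Without EB siC replicate 2 it was 1.00 with an SE of 0.386, and the call was lost.

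Neil1, which acts on oxidised bases and is known to be edited at the RNA level, was at 2.71 and 3.16 RPKM in EB siC and between 4.03 and 5.83 RPKM in ESC siC. These libraries did not overlap, yet the log2 change of -0.59 (SE 0.24) missed the threshold (limma adjusted p = 0.0703). Scaled by quantiles it was -0.76 with a limma adjusted p of 0.0317. Nthl1 was at 6.35 and 16.1 RPKM in EB siC and between 14.9 and 26.2 RPKM in ESC siC, which overlapped. Its log2 change of -0.91 (SE 0.46) did not pass (limma adjusted p = 0.135), but without EB siC replicate 2 it was -1.55 with a limma adjusted p of 0.0433.

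Mpg, the glycosylase of alkylated purines, was the most unequal between replicates. It was at 9.43 and 30.4 RPKM in EB siC and at 8.87 and 23.0 RPKM in EB siTdg, against 6.77 to 9.63 RPKM in ESC siC. The replicate 2 libraries of EBs were far above all ESC libraries, while the replicate 1 libraries lay inside the ESC range. The log2 change was 1.08 (SE 0.50, limma adjusted p = 0.103), made of 0.38 in replicate 1 and 1.79 in replicate 2. Without EB siC replicate 1 it was 1.90 with a limma adjusted p of 0.0157.

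**Figure D2:**
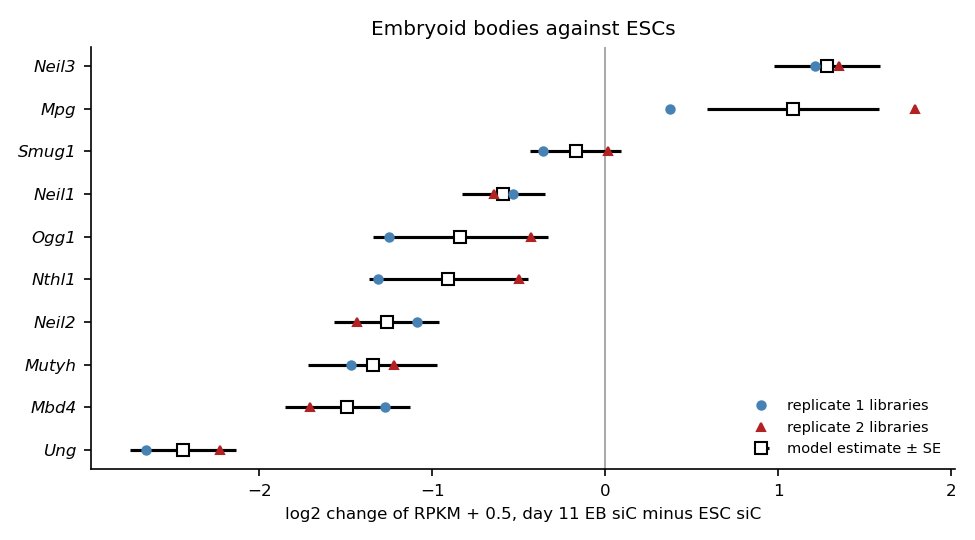
Log2 change of RPKM + 0.5 between day 11 EB siC and ESC siC (mean of 48 h and 96 h) for each glycosylase, as the limma estimate with its SE (squares) and for replicate 1 and replicate 2 libraries alone (circle, triangle). Ung is lowest at -2.44 and Neil3 highest at 1.28; the replicate values lie furthest apart for Mpg, at 0.38 and 1.79.

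The EB replicates differed by gene length over the whole transcriptome. In EB siC the median log2 difference of replicate 2 minus replicate 1 was 0.83 for genes under 2000 bases and -0.51 for genes of 4000 bases or more. In EB siTdg it was 0.85 and -0.61. ESCs at 96 h differed in the same direction, by 0.405 and -0.383 in siC and by 0.481 and -0.434 in siTdg. The other ESC groups differed by less. RPKM summed to 340297 and 371629 in the EB replicate 1 libraries and to 873442 and 816996 in EB replicate 2. All 10 glycosylases were counted on under 4000 bases. Mpg (1745 bases) was 3.22 times as high in replicate 2 as in replicate 1 in EB siC, Ogg1 (1543 bases) 2.94 times and Nthl1 (1080 bases) 2.53 times, while Neil1 (1170 bases) was 1.17 times as high. The part of this difference in the EB changes was not tested.

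Cell-cycle genes moved in the same comparison. Limma called 14 of 15 G2/M markers lower in EB siC, and the list had a median log2 change of -1.68. It called 13 of 15 G1/S markers lower, and their median was -2.02. Of all genes 27.3% were called lower. The G2/M markers summed to between 341 and 530 RPKM in the 4 EB libraries and to between 1094 and 1372 RPKM in the 8 unsorted ESC libraries, and none of these markers was at 0. The G1/S markers summed to between 328 and 426 RPKM and to between 1446 and 1710 RPKM. Markers of other cell types also differed between EB libraries: the 5 blood markers summed to between 5.10 and 734 RPKM, and the 9 endoderm and yolk sac markers to between 176 and 451 RPKM. Their part in the glycosylase changes was not tested.

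Other repair genes fell in EBs too. Of 20 genes that act later in base excision repair, limma called 14 lower in EB siC and 1 higher. Of all genes 27.3% were called lower and 21.4% higher. The list had a median log2 change of -1.29. The falls included Parp1, the sensor of strand breaks (-2.78), Lig1, the replicative DNA ligase (-2.65), Fen1, the flap endonuclease (-1.85), Apex1, the main AP endonuclease (-1.74), and Xrcc1, the repair scaffold (-1.49). Pole, Pold1, Rfc1, Parg, Tdp1, Poll, Aplf, Lig3 and Apex2 fell too, by log2 values from -1.82 (Pole) to -0.69 (Apex2). Aptx, which clears failed ligation ends, rose by 1.11 (SE 0.39, limma adjusted p = 0.0415).

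Of 8 genes that clean the nucleotide pool, limma called 2 lower, among them Itpa, the inosine triphosphatase (-1.03). This share is near the 27.3% of all genes that were called lower. Their list had a median of -0.82. Of 8 mismatch repair genes limma called 6 lower. Among them were the MutS homologue Msh6 (-3.78) and the exonuclease Exo1 (-1.99), with Mlh3 at -2.29 and Msh3 at -1.51. Their median was -1.76. The difference between these lists and the glycosylases was not tested.

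**Figure D3:**
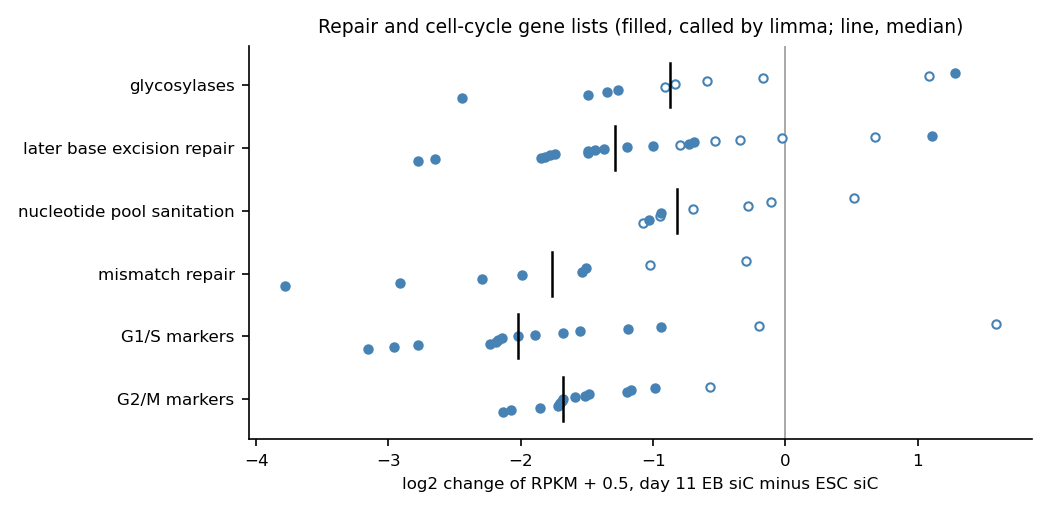
Log2 change of RPKM + 0.5 between EB siC and ESC siC for the genes of 6 lists, one point per gene, filled where limma called it, with the median of each list as a line. The glycosylases have a median of -0.87, the later steps of base excision repair -1.29, and mismatch repair -1.76.

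Promoter sequences are shown for Ung, which fell most in EBs, and for Mbd4, which fell and shares the G:T mispair substrate of TDG. That of Neil3, the 1 glycosylase called higher, is shown too. They are RefSeq sequences on GRCm38.p6, read 5′ to 3′ on the strand of the gene, from up to 250 bases before the annotated start, without bases that RefSeq places inside the gene. The windows are Ung at chr5:114130185-114130365 on the plus strand, Mbd4 at chr6:115853401-115853591 on the minus strand and Neil3 at chr8:53639066-53639315 on the minus strand. Capitals mark ATTGG, which is CCAAT on the other strand, in Mbd4, and TTCGAA in Neil3.
Ung: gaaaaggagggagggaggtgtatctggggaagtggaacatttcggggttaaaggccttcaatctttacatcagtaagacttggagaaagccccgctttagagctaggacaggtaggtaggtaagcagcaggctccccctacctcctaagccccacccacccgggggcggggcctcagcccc
Mbd4: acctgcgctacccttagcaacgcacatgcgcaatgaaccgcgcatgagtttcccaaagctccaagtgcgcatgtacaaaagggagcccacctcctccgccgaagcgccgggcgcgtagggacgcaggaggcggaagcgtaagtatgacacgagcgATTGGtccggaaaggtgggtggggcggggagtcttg
Neil3: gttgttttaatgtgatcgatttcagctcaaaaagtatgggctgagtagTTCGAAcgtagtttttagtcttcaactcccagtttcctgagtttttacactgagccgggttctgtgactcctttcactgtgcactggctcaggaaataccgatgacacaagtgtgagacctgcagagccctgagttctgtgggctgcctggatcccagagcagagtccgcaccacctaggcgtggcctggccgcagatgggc

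Letters of 3 kinds were searched on both strands of the 250 bases before the start, in the 9 glycosylases with a RefSeq window and in all 32851 windows. E2F-type letters (TTTCCCGC, TTTCGCGC, TTTGCCGC or TTTGGCGC) were in 1.86% of windows and in 1 glycosylase, Nthl1, 132 bases before its start. The letters of the cell cycle homology region (TTTGAA or TTCGAA) were in 17.1% of windows and in 1 glycosylase, Neil3, 202 bases before its start. CCAAT was in 33.8% of windows and in 6 glycosylases, Smug1, Mbd4, Ogg1, Mutyh, Nthl1 and Mpg. In the Ung window none of these letters was found. No match of one kind overlapped one of another in the 9 glycosylases. A further ATTGG of Mbd4, 44 bases before its start, lies in bases left out above. Matches describe letters only.

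Between G1 and G2M, Ung had the largest difference of the 10 glycosylases in both siRNA groups. In siC it was at 53.1 and 55.1 RPKM in G1 and at 35.2 and 40.8 RPKM in G2M. In siTdg it was at 55.3 and 60.6 RPKM in G1 and at 37.1 and 42.9 RPKM in G2M. G2M libraries stood below G1 libraries in both, without overlap. The log2 change of G2M minus G1 was -0.51 in siC (SE 0.12, limma adjusted p = 0.276) and -0.53 in siTdg (SE 0.12, limma adjusted p = 0.238).

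By limma 0 of 10 glycosylases were called in either siRNA group, against 0.12% of 12462 genes in siC and 0.169% in siTdg. At an unadjusted limma p under 0.05 there were 2 glycosylases in siC (Ung and Neil2), against 1012 genes (8.12%), and 1 in siTdg (Ung), against 1241 genes (9.96%). Limma-voom on the recovered reads called 0 in both. Neither fit held a term for replicate number, and whether Ung was called depended on that choice, as given at the end. In the authors' deposited table for siC phases, Ung was the 1 glycosylase called, with a log2 change of -0.51 (SE 0.086, adjusted p = 2.61e-07), against 8.48% of genes with an adjusted p. In the authors' deposited table for siTdg phases, Ung was again the 1 called, at -0.54 (SE 0.12, adjusted p = 0.000407), against 5.02% of genes. The labels do not give the model behind these tables. These are the same libraries, so the tables are not independent of the values above.

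A further separation, S/G2/M against G1 in ESCs at 0 h, is known here only from the authors' deposited table. It was turned to the sign of S/G2/M minus G1. Its direction was read from G2/M genes, so the signs given for it rest on that reading. Ung had a log2 change of -0.63 there (SE 0.11, adjusted p = 1.57e-07 in the authors' deposited table). Neil3 lay in the other direction, with 1.17 (SE 0.26, adjusted p = 0.000173 in the authors' deposited table). These were the 2 glycosylases called, against 11.6% of genes in the authors' deposited table at 0 h. Mutyh had 0.37 with an adjusted p of 0.139 in the authors' deposited table.

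In the G1 and G2M libraries Neil3 was nearly level. It was at 2.92 and 2.39 RPKM in siC G1 and at 2.64 and 2.51 RPKM in siC G2M, which overlapped, with a log2 change of -0.03 (SE 0.13). In siTdg it was at 2.46 and 2.74 RPKM in G1 and at 3.13 and 2.79 RPKM in G2M, without overlap and with a log2 change of 0.16 (SE 0.13). The 15 G2/M markers had a median log2 change of 1.94 in the authors' deposited table at 0 h. In the authors' deposited tables of G2M minus G1 it was 0.68 for siC and 0.73 for siTdg. The direction at 0 h was itself read from G2/M genes, so the sign of 1.94 is not a result. Whether Neil3 differs between these separations was not tested.

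The other glycosylases differed by less between phases. Neil2 was at 2.29 and 2.18 RPKM in siC G1 against 1.88 and 1.62 RPKM in siC G2M, and at 2.45 and 2.24 RPKM in siTdg G1 against 1.99 and 1.90 RPKM in siTdg G2M. G2M was below G1 without overlap in both, with log2 changes of -0.28 and -0.22 (limma adjusted p = 0.593 and 0.606). Smug1 stood the other way, at 5.72 and 6.42 RPKM in siC G1 against 6.84 and 6.57 RPKM in siC G2M, and its libraries in siTdg did not overlap either. Its log2 changes were 0.13 and 0.18.

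In siC 2 glycosylases were higher (Smug1, Mutyh) and 3 lower (Ung, Mbd4, Neil2) in G2M without overlap, where 41.0% of all genes had no overlap. In siTdg 2 were higher (Smug1, Neil3) and 2 lower (Ung, Neil2), where 33.3% of genes had none. These shares are near the background. The phase difference in siTdg minus that in siC was called for 0 glycosylases by limma and by limma-voom, and for 0.0% of genes. At an unadjusted limma p under 0.05 there were 0 glycosylases and 36 genes. For Ung that difference was -0.03 (SE 0.16).

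**Figure D4:**
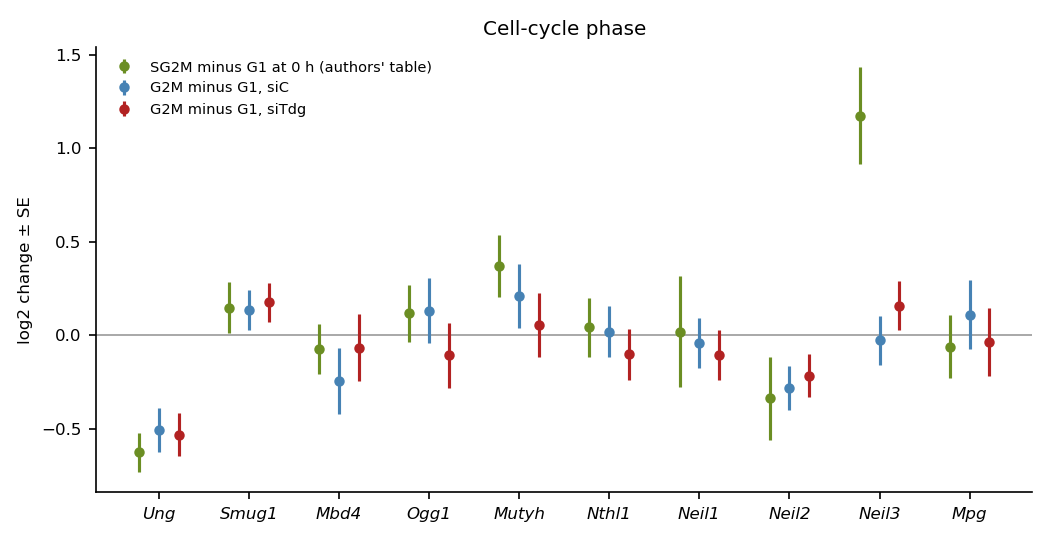
Log2 change with its SE for each glycosylase in S/G2/M minus G1 at 0 h, from the authors' deposited table (green), and in G2M minus G1 for siC (blue) and siTdg (red) by limma on RPKM + 0.5. Ung lies between -0.63 and -0.51 in all 3, and Neil3 is at 1.17 at 0 h and at -0.03 and 0.16 in the other comparisons.

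No glycosylase passed the test between siTdg and siC in any of the 5 settings. At 48 h, with Tdg at a log2 change of -2.12, the 10 glycosylases lay between -0.24 (Neil2) and 0.16 (Neil3), with SEs from 0.21 to 0.43. Limma called 0 of 10, against 0.0% of 12190 genes, and limma-voom also called 0. At an unadjusted limma p under 0.05 there were 0 glycosylases and 54 genes. Tdg itself was not called in this fit, so the lack of calls does not show that the levels did not differ. At 48 h no glycosylase was called in the authors' deposited table, against 1.35% of genes, with no adjusted p for 3 of them. Tdg was called there, with a log2 change of -2.18 (SE 0.43, adjusted p = 0.000176 in the authors' deposited table).

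Ung at 48 h was at 50.0 and 54.1 RPKM in siTdg against 54.82 and 52.96 RPKM in siC, a log2 change of -0.05 (SE 0.27). Mbd4 was at 5.17 and 9.72 RPKM against 5.08 and 10.6 RPKM, a log2 change of -0.04 (SE 0.43). Smug1 was at 6.39 and 7.21 RPKM against 7.19 and 7.32 RPKM, a log2 change of -0.09 (SE 0.21). These 3 enzymes, which share uracil or thymine substrates with TDG, overlapped between siRNAs. Mpg was the 1 glycosylase without overlap, at 7.62 and 7.87 RPKM in siTdg against 7.57 and 7.35 RPKM in siC, where 18.8% of all genes had none.

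At 96 h, where Tdg overlapped between siRNAs (log2 change -0.26), the glycosylases lay between 0.03 (Mbd4) and 0.19 (Neil2). All 10 were above 0, against 51.3% of all genes, and 5 were above 0 in both replicate numbers. In the other settings 3 of 10 were above 0 at 48 h, 7 in G1, 8 in G2M and 4 in EBs. For all genes these shares were 46.2%, 50.2%, 54.6% and 54.4%. At 96 h no glycosylase was without overlap, where 9.02% of genes were. Limma and limma-voom each called 0, against 0.0% of genes by limma, with 0 glycosylases and 11 genes at an unadjusted limma p under 0.05. The fit was the one used at 48 h, so the lack of calls does not show equal levels here either. The authors' deposited table called 0 glycosylases at 96 h as well, against 0.144% of genes, with no adjusted p for 7 of them. The change in the siRNA difference from 48 h to 96 h lay between -0.08 (Neil3) and 0.43 (Neil2). It was called by limma and by limma-voom for 0 glycosylases and for 0.0% of genes, with 0 glycosylases and 15 genes at an unadjusted limma p under 0.05.

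In sorted cells Tdg was the 1 gene that limma called between siRNAs, at -2.67 in G1 (SE 0.18, adjusted p = 0.0233) and -2.54 in G2M (SE 0.18, adjusted p = 0.0331). It makes up the background of 0.00802% in each phase. Limma called 0 glycosylases in both phases, as did limma-voom, and 0 had an unadjusted limma p under 0.05, where 428 genes in G1 and 257 in G2M did. In G1 the changes lay between -0.03 (Smug1) and 0.26 (Nthl1), and in G2M between -0.05 (Ogg1) and 0.17 (Neil3).

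Nthl1 in G1 was at 16.3 and 19.3 RPKM in siTdg against 13.7 and 15.9 RPKM in siC, without overlap. Its log2 change was 0.26 (SE 0.14, limma adjusted p = 0.916). Ung and Neil1 were also higher in siTdg G1 without overlap, which makes 3 of 10 where 25.7% of genes had no overlap. In G2M Mbd4, Neil2 and Neil3 were higher in siTdg without overlap, 3 of 10 where 25.0% of genes had none. Both shares are near the background. Levels of siC and siTdg in sorted cells come from separate tables, whose gene lengths were the same.

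In day 11 EBs, where Tdg was not lower in siTdg (log2 change 0.13), the glycosylases lay between -0.33 (Neil1) and 0.16 (Smug1), with SEs from 0.34 to 0.80. Limma called 0, against 0.0% of 13300 genes, and limma-voom 0, with 0 glycosylases and 20 genes at an unadjusted limma p under 0.05. With SEs this wide, the lack of calls does not show that the levels did not differ. The authors' deposited table called 0 glycosylases against 0.0745% of genes. Neil1 was at 2.55 and 1.94 RPKM in siTdg against 2.71 and 3.16 RPKM in siC, the 1 glycosylase without overlap, where 9.29% of genes had none. Neil3 was at 3.31 and 6.01 RPKM in EB siTdg and Ung at 7.80 and 12.0 RPKM, and both overlapped their EB siC libraries.

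**Figure D5:**
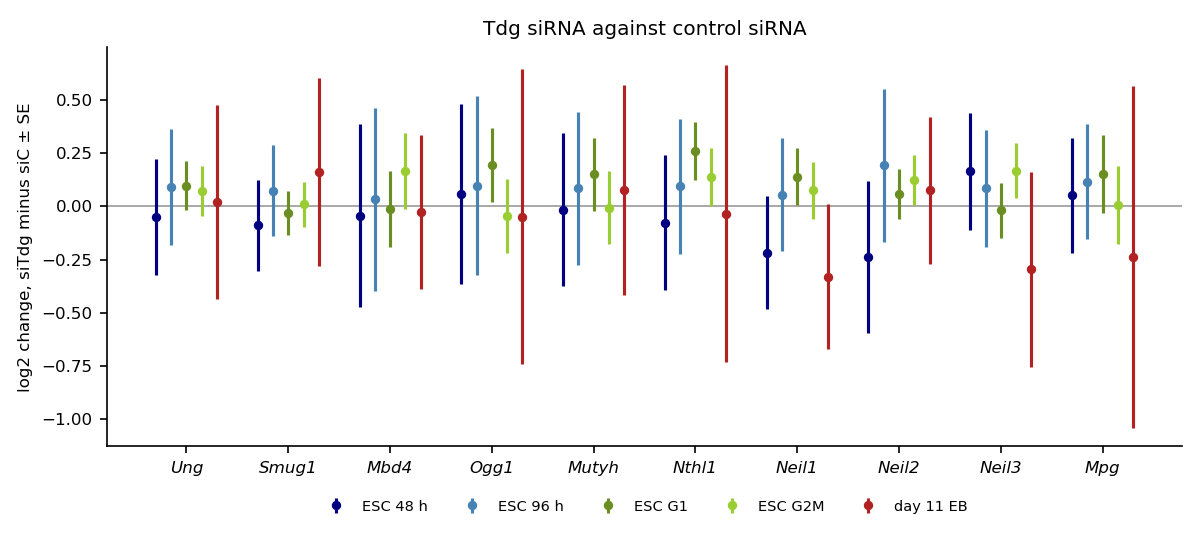
Log2 change of siTdg minus siC with its SE for each glycosylase in ESCs at 48 h and 96 h, in sorted G1 and G2M ESCs and in day 11 EBs, by limma on RPKM + 0.5. All values lie between -0.33 and 0.26, and the EB error bars are widest except for Mbd4 and Neil2.

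The later repair genes, the pool-cleaning genes and the mismatch repair genes had 0 calls by limma in the other 10 comparisons. Limma-voom called 0 as well, and at an unadjusted limma p under 0.05 a comparison held at most 1 later repair gene, 0 pool-cleaning genes and 2 mismatch repair genes. At 48 h the medians of siTdg minus siC were 0.04, 0.03 and 0.07. Between phases the largest mismatch repair difference among genes without overlap was that of Pms1, a MutL homologue, at 0.34 in siC and 0.42 in siTdg (limma adjusted p = 0.511 and 0.35). Polb, the gap-filling polymerase of base excision repair, was at -0.26 in siC G2M minus G1 (limma adjusted p = 0.74). Pole and Aptx went the other way there, at 0.30 and 0.24 (limma adjusted p = 0.786 and 0.785).

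From 48 h to 96 h in siC, 0 glycosylases were called by limma or limma-voom, against 0.0% of genes, with 0 glycosylases and 278 genes at an unadjusted limma p under 0.05. The changes lay between -0.22 (Neil2) and 0.29 (Mutyh), and the libraries of all 10 overlapped. Mutyh was at 6.26 and 9.57 RPKM at 48 h and at 7.69 and 11.9 RPKM at 96 h. The 48 h and 96 h libraries were scaled separately, and the labels do not say that they were cultured side by side. Time and library set cannot be told apart here.

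Across the 20 libraries, the 3 genes whose log2 levels followed each glycosylase most closely were found among 10610 genes by Pearson's r. Of these 3, only genes counted on the same length in all tables are named, and none is given for Ogg1 and Neil1, whose own lengths differed. For Ung they were Orc1, a subunit of the origin recognition complex (0.991), and Ahsa1 (0.985). For Mbd4 they were Tnfrsf22 (0.975) and Prmt5 (0.971), and for Neil3 B3galnt1 (0.952) and Uhrf2 (0.948). For Mpg they were Cops9 (0.990) and H3f3a (0.989). Psmb3 was among the closest for Mutyh (0.972), Lgals3 for Neil2 (0.948), Pxmp2 for Nthl1 (0.979) and Taf1b for Smug1 (0.939). The points share libraries, replicate differences and the step from ESCs to EBs, so r describes these libraries only.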

How the data were processed

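RNA was depleted of ribosomal RNA and made into stranded libraries, per the labels' protocols. The submitters' processing notes name TopHat, Bowtie, DESeq2, DiffBind and mm9. The sources used here give no annotation or counting tool and do not say if counting used strand. In RefSeq's GRCm38 annotation Ung overlaps Alkbh2, Mbd4 overlaps Ift122, Ogg1 overlaps Camk1 and Mpg overlaps Nprl3, so reads of these genes may be shared. The authors deposited RPKM in 5 tables, each scaled separately. They also deposited log2 fold changes with SEs, p-values and adjusted p-values, and mean normalised counts (signal), per the file headers. Signs were turned to siTdg minus siC and to S/G2/M minus G1, the latter by reading the direction at 0 h from G2/M genes. A further 4 columns of RPKM at 0 h matched no sample and were not used.

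Reads were recovered from the deposited RPKM values: 100.0% of positive values came out whole within 0.01 reads. Gene lengths were the same in the tables between which groups were tested (100.0% of genes), which was the condition for those tests. The same length was found for 78.8% of genes between the unsorted and the sorted tables, and no test crossed them; Pearson's r over all libraries did. Libraries were not duplicates (lowest chi-square per degree of freedom 4.63).

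Groups came from sample titles. Limma 3.58.1 in R 4.3.3 was run on log2(RPKM + 0.5), eBayes with trend, on genes averaging 0.5 RPKM or more, two-sided, with Benjamini-Hochberg adjustment over all genes at 0.05. Separate models held the 8 unsorted ESC, the 8 sorted and the 4 EB libraries, and 12 libraries for EBs against ESCs. The scripts were tested on simulated data. Alternatives tried were pseudocounts of 0.1 and 1, a filter at 1 RPKM and none, quantile scaling, no trend, limma-voom on recovered reads, fewer libraries and a replicate term. All glycosylases were described in every comparison. From the other repair lists called genes were named, or else up to 3 genes without overlap. Some genes that these rules name are not reported here. The members and lists were chosen with earlier results of these data known. RefSeq promoter windows were found by symbol for 9 of 10 glycosylases. Binding peaks, modified DNA, ATAC and day 9 EB samples were not analysed here.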

Additional observations from a re-analysis of the deposited data

How the results depend on the processing

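Over the 110 log2 changes of single glycosylases (10 in each of 11 comparisons) and 1950 values under alternatives, 0 called values reversed and 3 calls were lost, each by leaving out 1 EB siC library as given above. Under some alternative 14 values passed the threshold that do not pass above, and 152 values with no call changed sign. Without the filter on low values, limma called 4 genes for siTdg at 96 h, 6 in G1, 4 in G2M, 1 for 96 h against 48 h, 4 for the change of the siRNA difference with time and 7 for its change with phase. With only the groups compared in the fit, it called 3 genes for siC phases and 0 for siTdg phases, for siTdg in G1 and for siTdg in G2M. Leaving out 1 library gave 0 to 17 genes for siC phases (15 with all libraries), 0 to 8 for siTdg phases (21), 0 to 1 for siTdg in G1, in G2M and in EBs, and 4 to 5 glycosylases for EBs against ESCs (5), with 5192 to 6928 genes (6500). The causes were not tested.

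The replicate numbers are not stated to pair libraries, and the 2 pairs of a single comparison cannot show it. Same-numbered siC and siTdg libraries were mostly closer in reads, by chi-square per degree of freedom. EB siC replicate 1 had 20.59 with siTdg replicate 1 and 738.26 with siTdg replicate 2. At 96 h these values were 4.63 and 221.18. In G1, siC replicate 2 went the other way, with 34.26 for siTdg replicate 2 and 18.6 for siTdg replicate 1. Same-numbered libraries deviated together, with correlations from 0.564 (96 h against 48 h) to 0.951 (EBs). With replicate number as a block, Ung was called as lower in G2M in siC (adjusted p = 0.00909) and in siTdg (0.00672), the 1 glycosylase called in each, and by limma-voom with the block, chosen after seeing the data, 1 was called in each too (0.00268 and 0.00171). For EBs against ESCs the block gave 9 glycosylases, where 64.0% of all genes were called, and limma-voom with the block 8, where 64.1% were. Genes called with the block, and by limma-voom with it, were 614 and 853 for siC phases, 985 and 1203 for siTdg phases, 150 and 134 for siTdg in EBs, and 2 and 13 for siTdg in G1. For siTdg in G2M the block gave 3 genes. Depth limits Neil1, Neil2 and Neil3 most, with as few as 41, 38 and 100 reads in a library.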

Other observations

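Among the 8 glycosylases counted on the same length in all tables, Pearson's r of log2 levels over the 20 libraries was highest for Mutyh with Nthl1 (0.916), then for Mutyh with Neil2 (0.902) and Ung with Mbd4 (0.875). It was lowest for Ung with Neil3 (-0.752). Neil3 and Mpg, the 2 genes with their highest group means in EBs, had 0.772, and Smug1 with Mbd4 had 0.003. Ogg1 and Neil1 are left out because their lengths differed between the unsorted and the sorted tables. The points share libraries, gene-length differences between replicates and the step from ESCs to EBs, so these are descriptions with no test.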
